A study of Mus musculus with 2 samples.

Results

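Alveolar type 1 (AT1) cells are the thin, flat cells across which the lung exchanges gas. Before they form, the tips of the branching epithelium hold progenitors marked by Sox9, the stalks form airway epithelium marked by Sox2, and alveolar type 2 (AT2) cells, which secrete surfactant, are marked by surfactant genes such as Sftpa1. In the mouse, AT1 genes are known to come on in distal epithelium before birth, while progenitors are still dividing, and mature AT1 cells express them together. Of the 31053 genes listed for the series, 7 genes used as AT1 markers were chosen by symbol (Ager, Hopx, Pdpn, Akap5, Aqp5, Rtkn2 and Cav1), and each symbol was found once. They were followed through cells that had RNA of Sox9, Sftpa1 or Sox2.

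The series asks what the LEF/TCF transcription factors, through which Wnt signals reach their target genes, do in lung epithelial progenitors. Single epithelial cells were sorted from lungs of mouse embryos at embryonic day 15 into 1 control library and 1 library with the LEF/TCF factors knocked out. The genotype of the first is given only as control, and neither strain, Cre driver nor number of pooled embryos is stated. The expression of the knockout library was not analysed here, so each value below is from 1 control library, has no replicate spread and no test, and its 95% interval covers counting error only.

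Of 3568 control barcodes, 3457 passed a minimum of 1000 genes and a maximum of 10% mitochondrial UMIs. A UMI (unique molecular identifier) marks a captured RNA molecule. These cells held 53639813 UMIs, from 2013 to 112424 per cell with a median of 12826. Cells with both 4 or more UMIs of Xist and a UMI of a Y-linked gene, which mark a droplet that caught a female and a male cell, numbered 249 (7.20%). They are called doublet-marked below, and droplets of like-sexed cells carry no such mark. The labelled epithelial identity held for most cells: 5 pan-epithelial markers (Epcam, Cdh1, Krt8, Krt18, Cldn6) lay between 1724 and 2090 CPM (the UMIs of a gene scaled by all UMIs of the class) in the classes defined by Sox9, Sftpa1 and Sox2 and at 1794 CPM in the cells with none of these genes. A gate that required mesenchymal markers and few of the 5 epithelial ones found 40 mesenchymal cells that remained after sorting. Of the endothelial markers 5 of 7 had UMIs, 173 in all, with Cdh5 and Tie1 at 0, and no cell met the endothelial gate. Of the blood markers 6 of 7 had UMIs, 1000 in all, of which 933 were in cells with none of the 3 class genes, with Ptprc at 0, and 1 cell met the blood gate.

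Cells were placed in classes that do not overlap. Sox9-positive cells, with a Sox9 UMI and none of Sftpa1 or Sox2, numbered 1240 (18721419 UMIs). Sftpa1-positive cells, with an Sftpa1 UMI and none of Sox2, numbered 762 (14417433 UMIs), and their Sox9 level was 181 CPM against 184 CPM in Sox9-positive cells. Sox2-positive cells, with none of the other two genes, numbered 409 (4810607 UMIs). A further 288 mixed cells had Sox2 with Sox9 or Sftpa1, a median of 24632 UMIs, and were doublet-marked in 35.4% of cases. The other 758 cells had no UMI of the 3 genes and a median of 9487 UMIs. Of the marker genes, the surfactant gene Sftpc was at 1523 CPM in Sox9-positive and 1977 CPM in Sftpa1-positive cells against 109 CPM in Sox2-positive cells. The airway secretory gene Scgb3a2 was at 355 CPM in Sox2-positive and 5.93 CPM in Sox9-positive cells.

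All 7 members are protein-coding genes, and their positions are from GENCODE M21 (GRCm38), matched by identifier. Ager (ENSMUSG00000015452) lies on chromosome 17 from 34597862 to 34600936, plus strand. Hopx (ENSMUSG00000059325) lies on chromosome 5 from 77086988 to 77115121, minus strand, and shares exon sequence with Hopxos, an antisense RNA. Pdpn (ENSMUSG00000028583) lies on chromosome 4 from 143267431 to 143299564, minus strand. Akap5 (ENSMUSG00000021057) lies on chromosome 12 from 76324891 to 76334153, plus strand. Aqp5 (ENSMUSG00000044217) lies on chromosome 15 from 99590782 to 99594829, plus strand. Rtkn2 (ENSMUSG00000037846) lies on chromosome 10 from 67979570 to 68059740, plus strand, with exons overlapped by Gm16212 on the other strand. Cav1 (ENSMUSG00000007655) lies on chromosome 6 from 17306335 to 17341452, plus strand. No exon of another gene covers the 3′ end of any of the 7, where the UMIs are captured, and the matrix does not divide UMIs by exon or transcript form.

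The members Ager, Pdpn and Akap5 supplied most of the UMIs and moved together between tip and airway cells, so the bases before their start sites are shown. They are from the RefSeq promoter table (GRCm38.p6), 5′ to 3′ on the gene's strand, and no annotated exon overlaps them. Capitals mark a match to CTTTGA or CTTTGT on either strand, the core letters bound by LEF/TCF factors.
Ager chr17:34597600-34597849, plus: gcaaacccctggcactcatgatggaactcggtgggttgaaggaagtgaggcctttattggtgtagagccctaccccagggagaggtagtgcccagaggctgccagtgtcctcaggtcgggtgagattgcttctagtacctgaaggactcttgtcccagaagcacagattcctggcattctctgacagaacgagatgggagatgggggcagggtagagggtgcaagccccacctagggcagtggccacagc
Pdpn chr4:143299565-143299814, minus: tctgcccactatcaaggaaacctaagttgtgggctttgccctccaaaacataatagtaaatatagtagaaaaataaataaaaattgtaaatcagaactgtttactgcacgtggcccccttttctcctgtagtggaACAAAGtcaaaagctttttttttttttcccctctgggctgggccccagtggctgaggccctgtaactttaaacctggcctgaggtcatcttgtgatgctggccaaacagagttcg
Akap5 chr12:76324641-76324890, plus: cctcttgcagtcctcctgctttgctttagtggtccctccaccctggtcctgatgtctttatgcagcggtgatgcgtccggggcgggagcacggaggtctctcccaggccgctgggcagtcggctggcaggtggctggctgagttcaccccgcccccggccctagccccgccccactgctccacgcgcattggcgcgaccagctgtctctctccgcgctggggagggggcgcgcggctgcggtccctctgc

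The only match in these 3 windows was in Pdpn, and 27.6% of the 32851 mouse promoters in the table have a match in the same 250 bases. The windows of Ager, Pdpn and Akap5 held no match to CAAGTG, the core letters bound by the lung factor NKX2-1, or to GGAATG, those bound by the TEAD partners of YAP, on either strand. Among all promoters, 11.6% and 12.6% hold these motifs in 250 bases. The windows differed in base makeup, from 43.2% G and C in Pdpn to 57.6% in Ager and 70.0% in Akap5, against a median of 52.4% over all promoters. A match is a description of the letters only.

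The first question was at what level each gene was transcribed. Over the 3457 cells, Ager, the receptor for advanced glycation end products that AT1 cells carry in quantity, had 3153 UMIs and a level of 58.8 CPM (56.7 to 60.9). Pdpn, which codes for the membrane glycoprotein podoplanin, had 2292 UMIs, and Akap5, an anchor for protein kinase A, had 1531 UMIs. Their levels were 42.7 CPM (41.0 to 44.5) and 28.5 CPM (27.1 to 30.01). The intervals of these 3 genes lay apart from each other.

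The other 4 members were rarer. Rtkn2 was at 8.30 CPM (7.54 to 9.10), and Hopx, a homeodomain protein that does not itself bind DNA, was at 3.80 CPM (3.30 to 4.36). Cav1, the coat protein of caveolae, was at 1.59 CPM (1.27 to 1.96) from 85 UMIs. Aqp5, a water channel of mature AT1 cells, had 1 UMI in the library, in a Sox9-positive cell. The order Ager, Pdpn, Akap5, Rtkn2, Hopx, Cav1, Aqp5 had no neighbours with overlapping intervals. These are levels of captured molecules, each counted once at its 3′ end whatever its length, and genes can be captured with unequal success.

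**Figure D1:**
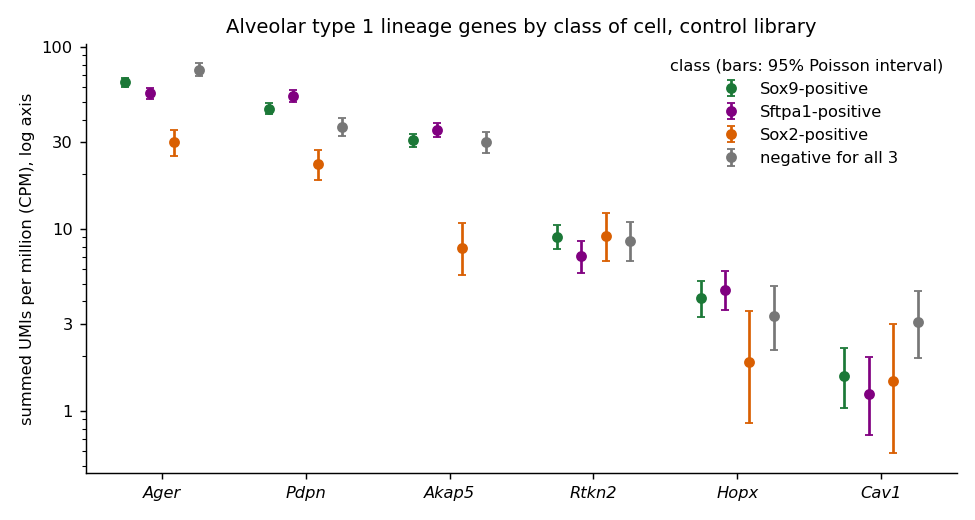
Level of each AT1 lineage gene (summed UMIs scaled by all UMIs of the class, CPM, log axis) in 4 classes of control cells, with 95% Poisson intervals; Aqp5, with 1 UMI, is left out. Ager, Pdpn and Akap5 sit lowest in Sox2-positive cells (29.9, 22.7 and 7.90 CPM), while Rtkn2 sits near 9 CPM in both Sox9-positive and Sox2-positive cells.

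The levels were then compared between classes, to see which part of the epithelium carried each member. In Sox9-positive cells Ager was at 64.0 CPM (60.5 to 67.8), in Sftpa1-positive cells at 56.0 CPM (52.2 to 60.0) and in Sox2-positive cells at 29.9 CPM (25.2 to 35.2). Pdpn was at 45.9 CPM (42.9 to 49.1), 54.0 CPM (50.2 to 57.9) and 22.7 CPM (18.6 to 27.3) in the same order. Akap5 was at 30.9 CPM (28.4 to 33.5), 35.0 CPM (32.0 to 38.2) and 7.90 CPM (5.59 to 10.8). For all 3 genes the Sox2-positive interval lay below both others.

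Hopx, with 9 UMIs in Sox2-positive cells, was at 4.17, 4.65 and 1.87 CPM in Sox9-positive, Sftpa1-positive and Sox2-positive cells. The Sox2-positive interval (0.856 to 3.55) lay below the Sftpa1-positive one (3.60 to 5.90) and overlapped the Sox9-positive one (3.29 to 5.20). Rtkn2 was at 9.08, 7.08 and 9.15 CPM and Cav1 at 1.55, 1.25 and 1.46 CPM, with overlapping intervals. Aqp5 had no UMI in Sftpa1-positive or Sox2-positive cells, which allows up to 0.208 CPM and 0.624 CPM (3 counts over the class).

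Of the 7 members, 5 had at least 50 UMIs over Sox9-positive and Sox2-positive cells, and 4 of these had a ratio whose interval lay above 1. Among all genes with as many UMIs, 14.1% did. None of the 5 lay below 1, against 29.0% of all genes. Akap5 had the highest ratio at 3.91 (2.81 to 5.58), followed by Hopx at 2.23 (1.11 to 5.05), Ager at 2.14 (1.80 to 2.56) and Pdpn at 2.03 (1.66 to 2.50). The interval of Hopx held 1 with at least 2 UMIs of the class gene (ratio 1.75, 0.794 to 4.56), in cells of at most 14000 UMIs (2.66, 0.800 to 13.9) and without proliferating cells (3.08, 0.907 to 16.3). With classes called after thinning, Hopx had no UMI in Sox2-positive cells and no ratio. Rtkn2 did not differ beyond counting error, with a ratio of 0.993 (0.709 to 1.42). The median log2 ratio of the 5 genes was 1.10, against -0.13 over all genes.

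The size of the Akap5 ratio depended on which cells entered. Of its 38 UMIs in Sox2-positive cells, 15 (39.5%) came from the 19 doublet-marked cells, which made up 4.65% of the class and held 9.83% of its UMIs. Without doublet-marked cells the ratio was 5.95 (3.92 to 9.47), and in cells of at most 14000 UMIs, a limit that leaves few doublet-marked cells, it was 12.4 (5.95 to 31.3). The same cells held 13.2% of the Ager and 8.26% of the Pdpn UMIs of the class. When classes were allowed to overlap, so that mixed cells counted in each, the ratios were 1.80 for Akap5, 1.35 for Ager and 1.59 for Pdpn, all with intervals above 1. The part of undetected doublets in the remaining Sox2-positive levels was not tested.

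Transcripts of other cell types also differed between these classes. The 8 mesenchymal markers summed to 21.2 CPM in Sox2-positive and 4.11 CPM in Sox9-positive cells, and 97 of the 102 UMIs in the former were of Dcn. Col3a1, Pdgfrb, Tcf21 and Tbx4 were at 0 in Sox2-positive cells. The 4 lymphatic endothelial markers summed to 16.8 CPM in Sox2-positive and 1.55 CPM in Sox9-positive cells, with only Prox1 and Flt4 above 0 in the former. The airway basal markers were at 3.95 and 0.107 CPM, the mesothelial at 3.12 and 0.801 CPM, the endothelial at 2.08 and 2.88 CPM and the blood markers at 1.87 and 1.66 CPM. The part of these transcripts in the ratios of the members was not tested. No Sox2-positive cell and 2 Sox9-positive cells met a gate for another cell type, so leaving out such cells does not bear on them.

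Sftpa1-positive cells were compared with Sox9-positive cells to ask whether AT1 genes differ between distal cells with and without Sftpa1. Both classes already had Sftpc. The differences were small and did not share a direction. Pdpn had a ratio of 1.17 (1.06 to 1.30) and Akap5 of 1.13 (1.005 to 1.28), while Ager had a ratio of 0.874 (0.798 to 0.956). Thus 2 of 5 members lay above 1 and 1 lay below, against 13.1% and 5.78% of all genes. Hopx, at 1.12 (0.792 to 1.57), and Rtkn2, at 0.779 (0.603 to 1.002), had intervals that held 1.

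The Ager ratio was below 1 under all 10 alternatives tried, from 0.629 to 0.921. Its interval held 1 with at least 2 UMIs of the class gene (0.897, 0.793 to 1.01) and in cells with no UMI of the proliferation genes Mki67 or Top2a (0.860, 0.686 to 1.07). In cells of at most 14000 UMIs its ratio was 0.763 (0.627 to 0.924), and with classes called after thinning every cell to 5000 UMIs it was 0.629 (0.481 to 0.813). The higher Pdpn and Akap5 levels turned once Mki67- and Top2a-positive cells were removed, where the ratios were 0.953 (0.732 to 1.23) and 0.813 (0.587 to 1.12). That restriction left 377 Sox9-positive and 183 Sftpa1-positive cells. The Akap5 interval also held 1 without doublet-marked cells (1.11, 0.976 to 1.26), with at least 2 UMIs of the class gene (1.02, 0.866 to 1.21), with overlapping classes (1.10, 0.993 to 1.22) and in cells of at most 14000 UMIs (1.02, 0.806 to 1.28). That of Pdpn held 1 in cells of at most 14000 UMIs (1.20, 0.980 to 1.45) and with classes called after thinning (1.11, 0.869 to 1.42).

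**Figure D2:**
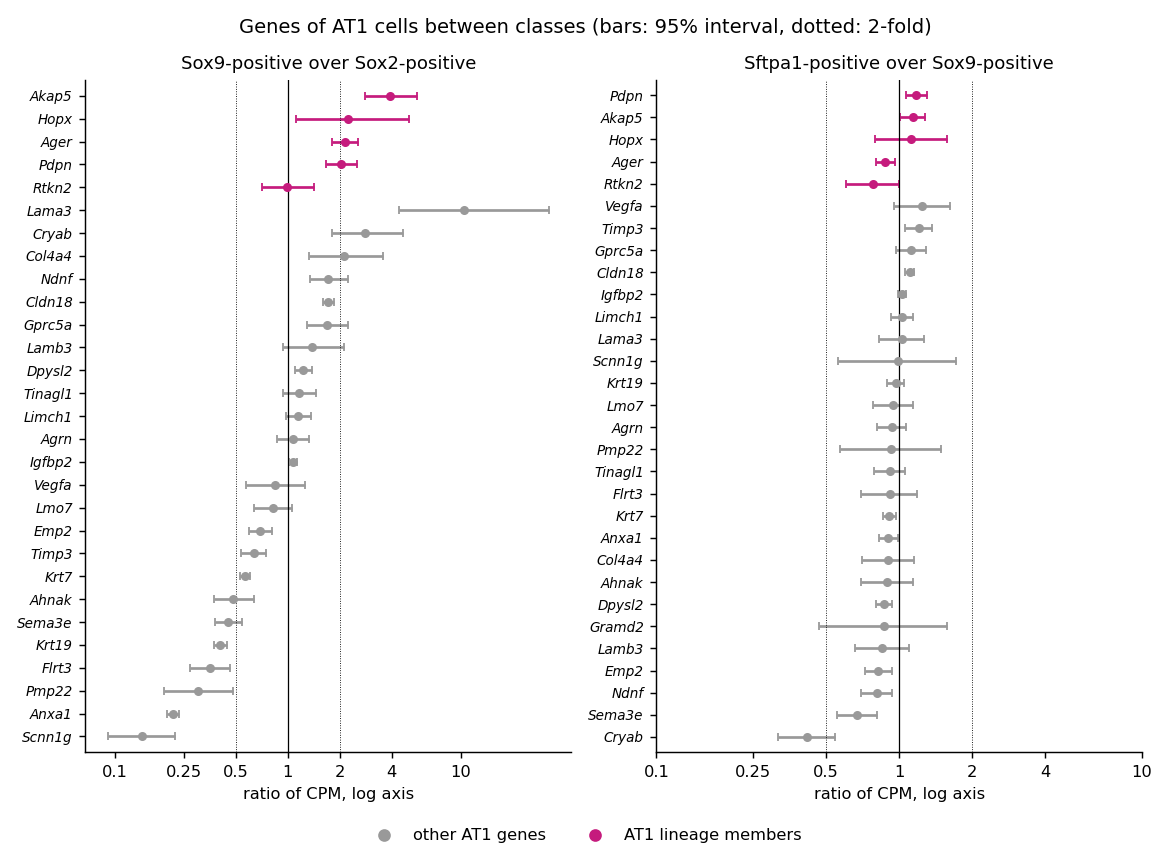
Ratio of CPM (log axis) of AT1 lineage genes (magenta) and of other AT1 genes (grey) with at least 50 UMIs over the 2 classes compared, with 95% intervals; the solid line is 1 and the dotted lines are 2-fold. At left, Akap5, Hopx, Ager and Pdpn lie above 1 in Sox9-positive over Sox2-positive cells, while the other AT1 genes run from Scnn1g at 0.144 to Lama3 at 10.4. At right, in Sftpa1-positive over Sox9-positive cells, all but Cryab lie within 2-fold.

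The cells without a UMI of any of the 3 class genes carried the members too. Ager was at 75.0 CPM there (69.0 to 81.3), a ratio of 1.17 (1.06 to 1.29) to Sox9-positive cells. Pdpn was lower, at 36.5 CPM with a ratio of 0.794 (0.692 to 0.908), and Akap5 was at 29.9 CPM with a ratio of 0.969 (0.829 to 1.13). Cav1 was at 3.07 CPM. In the same cells the mesenchymal markers summed to 76.7 CPM against 4.11 CPM in Sox9-positive cells, and the blood markers to 119 CPM against 1.66 CPM. Without the cells of the mesenchymal gate, Ager was at 77.9 CPM (71.7 to 84.5), Pdpn at 37.8 CPM (33.5 to 42.4), Akap5 at 31.2 CPM (27.3 to 35.5) and Cav1 at 1.87 CPM (1.02 to 3.13). The part of the blood transcripts in these levels was not tested. Sftpc was at 1028 CPM and Scgb3a2 at 90.6 CPM in these cells, so transcripts of both distal and airway cells were present.

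The level of Ager was lower where more Sox9 was captured. Among Sox2-negative epithelial cells thinned to 5000 UMIs, Ager was at 65.5 CPM (59.8 to 71.6) in 1483 cells with no Sox9 UMI and at 60.8 CPM (52.9 to 69.6) in 697 cells with 1. It was at 52.3 CPM (41.4 to 65.2) in 302 cells with 2 and at 36.2 CPM (24.7 to 51.04) in 177 cells with 3 or more. The first and last intervals lay apart.

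Pdpn did not follow, with levels from 41.8 to 48.6 CPM and overlapping intervals. Akap5 ran from 31.3 CPM (27.4 to 35.6) to 22.6 CPM (13.8 to 34.9), also with overlapping intervals. Id2, a gene of tip progenitors, went the other way from Ager, from 660 CPM (642 to 679) to 1598 CPM (1516 to 1683). The share of cells with an Mki67 or Top2a UMI was 41.9% with no Sox9 UMI and 59.3% with 3 or more, the doublet-marked share 4.85% and 6.21%, and the median depth before thinning 12463 and 12592 UMIs. The part of proliferation in the Ager difference was not tested in these groups.

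**Figure D3:**
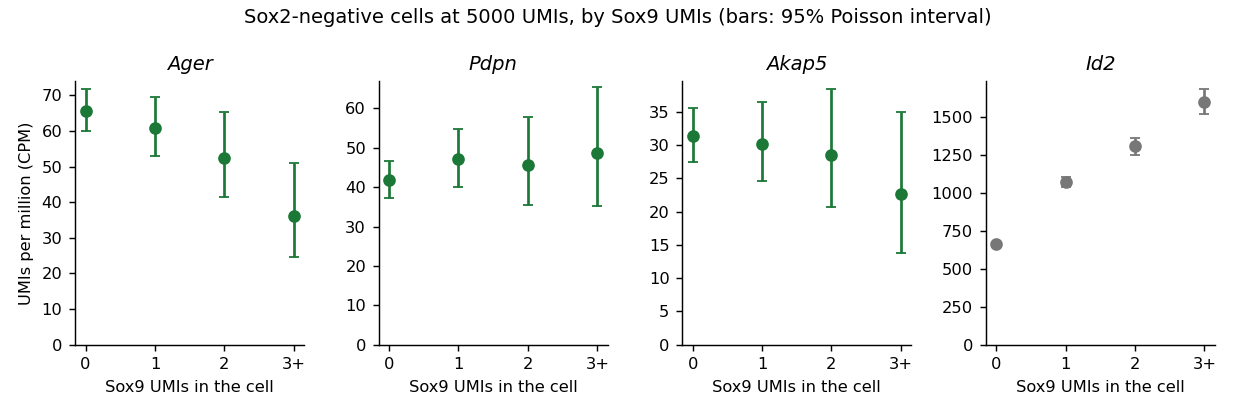
Level (CPM) of Ager, Pdpn, Akap5 and the tip gene Id2 in Sox2-negative epithelial cells thinned to 5000 UMIs, by the number of Sox9 UMIs in the cell, with 95% Poisson intervals. Ager falls from 65.5 to 36.2 CPM across the 4 groups, Pdpn stays between 41.8 and 48.6 CPM, and Id2 rises from 660 to 1598 CPM.

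The share of cells with a UMI gives the same genes cell by cell. Each cell was thinned at random to 5000 UMIs, which left 3365 cells and left out 92. Ager was found in 21.4% of them (19.99 to 22.8), Pdpn in 16.8% (15.5 to 18.1) and Akap5 in 11.5% (10.4 to 12.6). Without thinning these shares were 44.1%, 39.1% and 29.3%. Rtkn2 was found in 3.95% of thinned cells, Hopx in 1.69%, Cav1 in 0.862% and Aqp5 in 1 cell, and in 11.1%, 5.55%, 2.29% and 1 cell of the unthinned ones. Most positive cells had a single molecule: of 719 cells with Ager after thinning, 555 had 1 UMI and 7 had 4 or more.

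Mesenchymal cells, which should lack most members, gave a measure of free RNA. Of the 36 mesenchymal cells at this depth, 2 had an Ager UMI (5.56%, interval 0.680 to 18.7), 1 had a Pdpn UMI, 1 had an Rtkn2 UMI and none had Akap5 or Hopx. Their median depth before thinning was 8431.5 UMIs, against 13038 for all cells thinned. Unthinned, Ager was found in 5% of the 40 mesenchymal cells. The share with Ager was 23.9% in Sox9-positive (21.5 to 26.4), 18.7% in Sftpa1-positive (16.0 to 21.7) and 12.8% in Sox2-positive cells (9.64 to 16.6), and 47.7%, 52.0% and 21.8% before thinning. Only the Sox2-positive and Sftpa1-positive intervals overlapped that of the mesenchymal cells, whose small number leaves it wide. The Sox2-positive share of Ager lay inside the mesenchymal interval, as did those of Pdpn (9.16% against 0.0703 to 14.5) and Akap5 (2.88% against 0 to 9.74). In Sox2-positive cells, expression of these members could thus not be told from free RNA by shares alone. The share of Pdpn in the cells negative for all 3 class genes (14.1%) also lay inside, and so did those of Rtkn2 and Hopx in every class. By unthinned level, Ager was at 29.93 CPM (25.24 to 35.24) in Sox2-positive and 5.998 CPM (0.7264 to 21.67) in mesenchymal cells, intervals that lay apart. Those of Pdpn (18.6 to 27.33 and 0.7264 to 21.67) and Akap5 (5.59 to 10.84 and 0.07593 to 16.71) overlapped.

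Cav1 was the member with a source outside the epithelium. The 40 mesenchymal cells, 1.16% of those kept, gave 10 of its 85 UMIs (11.8%), and their level of 29.99 CPM (14.4 to 55.2) was 21.3 times that of all other cells (9.82 to 41.4). Ager, with 2 UMIs in the same cells, had a ratio of 0.101 (0.0123 to 0.367) and Pdpn one of 0.140 (0.0169 to 0.505). The Cav1 level in the 3 epithelial classes was at most 1.55 CPM.

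Co-detection asks whether the members were found in the same cells, as they are in mature AT1 cells. At 5000 UMIs, 43.9% of cells had at least 1 of the 7 members (42.2 to 45.6), 10.4% had at least 2 (9.42 to 11.5) and 1.72% had at least 3 (1.31 to 2.22). Multiplying out the single shares, as if members were found independently, gave 9.44% for at least 2, which the interval held, and 0.883% for at least 3, which lay below it. At least 4 members were found in 3 cells. Because Aqp5 was found in 1 cell and each other member in a minority, cells were not divided into AT1 cells and others.

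Of the 21 pairs of members, 10 had at least 5 cells to be found by the product of shares. Ager with Rtkn2 was found in 50 cells, 1.49% (1.11 to 1.95), which is 1.76 times the product. Pdpn with Akap5 was found in 87 cells, 2.59% (2.08 to 3.18) or 1.34 times the product, and Ager with Akap5 in 103 cells, 3.06% (2.51 to 3.70) or 1.25 times. The other 7 intervals held the product, among them Ager with Pdpn, found in 130 cells, 3.86% (3.24 to 4.57) against 3.58%. The cells share 1 library, and their classes differ in Ager, Pdpn and Akap5. A pair of these 3 genes can thus pass the product through a difference between classes alone. Rtkn2 was at 9.08, 7.08 and 9.15 CPM in Sox9-positive, Sftpa1-positive and Sox2-positive cells, with overlapping intervals.

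Within distal cells, meaning the Sox2-negative cells with a Sox9 or Sftpa1 UMI, 9 pairs could be read and 1 passed the product. Ager with Rtkn2 was found in 30 of 1985 cells, 1.51% (1.02 to 2.15), which is 1.78 times the product. Ager with Akap5 (1.15 times), Pdpn with Akap5 (1.17 times) and Ager with Pdpn (0.952 times) had intervals that held it. At least 2 members were found in 12.1% of distal cells (10.7 to 13.6) against 11.5% from the product, and at least 3 in 1.81% (1.27 to 2.50) against 1.21%. Without doublet-marked cells, the number of pairs whose interval lay above the product was again 3 over all cells and 1 over distal cells.

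**Figure D4:**
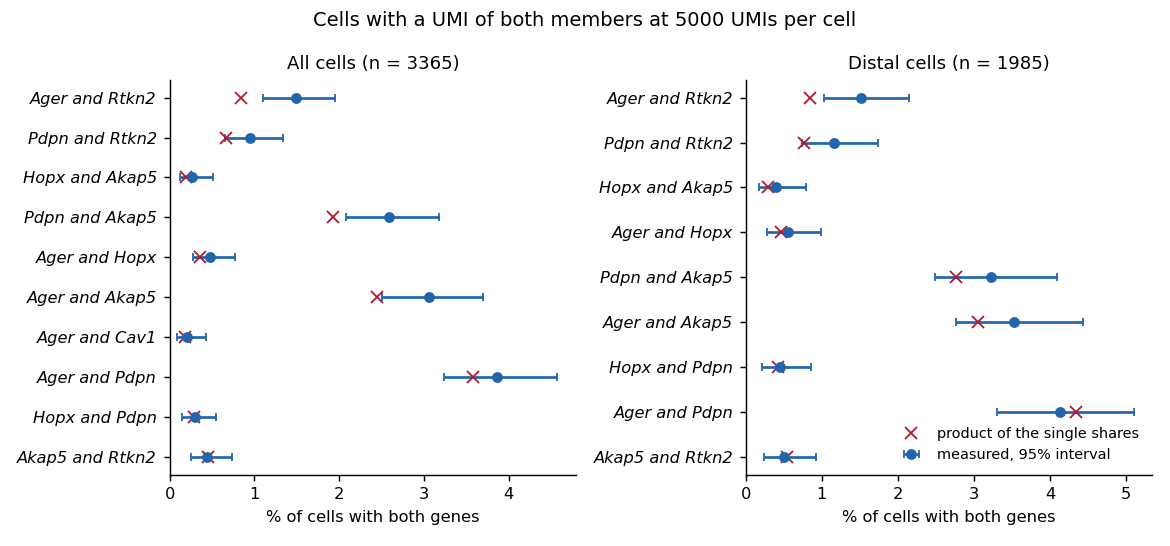
Percent of cells with a UMI of both members at 5000 UMIs per cell (points, 95% binomial intervals) and the product of their single shares (crosses), for pairs with at least 5 cells from the product, over all 3365 cells at left and 1985 distal cells at right. Ager with Rtkn2 lies to the right of its cross in both (1.49% and 1.51%), while Ager with Pdpn lies on it.

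The class genes were set against the members in the same way. Sox2 was found with Ager in 36 cells, 1.07% (0.750 to 1.48), which is 0.443 times the product. For Akap5 the observed share was 0.367 times the product and for Pdpn 0.581 times, both with intervals below it. Sox2 was found with Hopx in 0 cells, an upper limit of 0.110% against 0.191% from the product. Sftpa1 was found with Akap5 at 1.51 times the product and with Ager at 0.751 times, with intervals on opposite sides of it. With Rtkn2 it was found in 8 cells, 0.507 times the product, and the upper limit (0.4679%) was just below the product (0.4687%). Sox9 was found with Ager at 1.003 times the product, with Akap5 at 1.10 times and with Pdpn at 1.13 times, and all 3 intervals held the product.

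Sox2-positive cells with several members were few. At 5000 UMIs, 93 of 382 (24.3%) had at least 1 member. At least 2 were found in 12, 3.14% (1.63 to 5.42), an interval that held the 2.65% from the product. At least 3 were found in 6, 1.57% (0.579 to 3.39) against 0.111% from the product. The part of doublets in these 6 cells was not tested.

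Rtkn2 differed from Ager, Pdpn and Akap5 with the cell cycle. Among distal cells thinned to 5000 UMIs, 1004 had an Mki67 or Top2a UMI and 981 had none, with median depths of 15171 and 13222 UMIs before thinning. Rtkn2 was at 10.96 CPM in the first and 4.69 CPM in the second, a ratio of 2.34 (1.41 to 3.98). Ager, at 1.07 (0.905 to 1.28), Pdpn, at 0.981 (0.816 to 1.18), and Akap5, at 1.01 (0.802 to 1.27), had intervals that held 1. Of the 4 members with enough UMIs, 1 thus lay above 1 and 0 below, against 11.0% and 6.98% of all genes.

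Distal cells with more Ager were examined for other genes of AT1 cells. Cells with at least 2 Ager UMIs after thinning numbered 86, and 1550 had none. Their median depths before thinning were 14436.5 and 13915 UMIs, their doublet-marked shares 8.14% and 5.61%, and their shares with Mki67 or Top2a 53.5% and 50%. Rtkn2 was at 18.6 CPM against 6.07 CPM, a ratio of 3.07 (1.25 to 6.55) from 8 and 47 UMIs. Pdpn was at 46.5 CPM against 48.4 CPM, a ratio of 0.961 (0.580 to 1.51). Akap5 had a ratio of 1.65 (1.004 to 2.59), but another random draw of the thinning gave 0.891 (0.468 to 1.55), so its direction rests on the draw. The Pdpn ratio changed with the Ager limit. It was 0.931 (0.738 to 1.17) with at least 1 Ager UMI. With at least 3 it was 2.07 (1.02 to 3.74), from 11 Pdpn UMIs in the Ager-positive cells. With at least 3 Ager UMIs the Rtkn2 ratio was 1.499 (0.0372 to 8.77), from 1 Rtkn2 UMI in those cells.

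A list of 30 other AT1 genes had 20 members with at least 50 UMIs over these cells. Of the 20, 5 were at least 2-fold higher in Ager-positive cells, against 2.75% of all genes, and 0 were at least 2-fold lower, against 5.90%. The 5 were 0 with 1 Ager UMI as the limit, 3 in cells of at most 14000 UMIs and 1 over genes with at least 200 UMIs. The median ratio of the 20 was 1.26 (0.34 as log2, against 0.04 over all genes). Ahnak, a large scaffold protein, had the highest ratio at 3.28 (1.49 to 6.49), from 10 and 55 UMIs. Emp2, a membrane protein of AT1 cells, was at 81.4 CPM against 25.9 CPM, a ratio of 3.14 (2.13 to 4.51). Ndnf, a secreted factor, had a ratio of 2.23 (1.32 to 3.55) and Lmo7, a protein of cell junctions, of 2.12 (1.06 to 3.87). The fifth gene, Col4a4, a collagen chain of basement membrane, had a ratio of 2.003 whose interval held 1 (0.704 to 4.65), and it is named after its values were seen.

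With another random draw, the ratios of Emp2 and Ahnak were 2.49 (1.60 to 3.74) and 3.003 (1.37 to 5.93). Those of Ndnf and Lmo7 were then 1.64 (0.898 to 2.79) and 1.52 (0.677 to 3.003), with intervals that held 1. With at least 1 Ager UMI as the limit, Emp2 was at 1.79 (1.40 to 2.29), Ahnak at 1.81 (1.11 to 2.91) and Rtkn2 at 2.35 (1.44 to 3.78). Of the 12 regulators with enough UMIs, 0 were at least 2-fold higher and 0 at least 2-fold lower, against 2.75% and 5.90% of all genes. By interval, 2 lay above 1 and 0 below, with no share over all genes to set beside these counts. The median ratio of the 12 was 1.05. Klf5, a zinc-finger factor of lung epithelium, was at 62.8 CPM against 32.9 CPM, a ratio of 1.91 (1.23 to 2.84), and Nkx2-1, a lineage factor of lung epithelium, had a ratio of 1.21 (1.04 to 1.41).

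**Figure D5:**
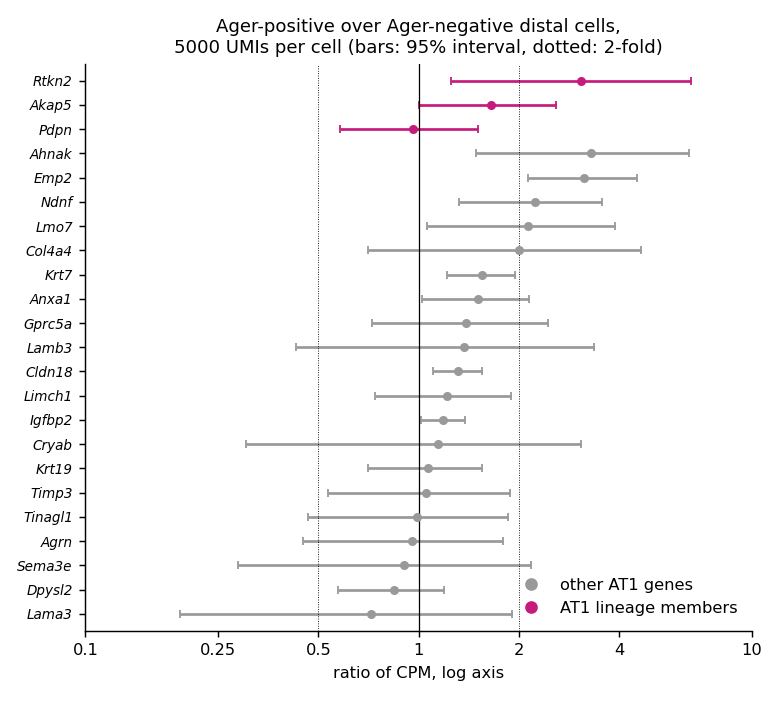
Ratio of CPM (log axis) in 86 distal cells with at least 2 Ager UMIs over 1550 with none, at 5000 UMIs per cell, for AT1 lineage genes (magenta) and other AT1 genes (grey) with at least 50 UMIs, with 95% intervals. Rtkn2 (3.07), Ahnak (3.28) and Emp2 (3.14) lie to the right with intervals above 1, and Pdpn (0.961) lies at 1.

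The same list of other AT1 genes did not share the pattern of the members between classes. Over Sox9-positive and Sox2-positive cells, 24 of the 30 genes had at least 50 UMIs, and 8 had an interval above 1 and 10 an interval below 1, against 14.1% and 29.0% of all genes. At least 2-fold higher were 3 genes, against 3.0% of all genes, and at least 2-fold lower were 7, against 6.35%. The median log2 ratio was -0.08.

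The 3 higher genes were Lama3, a laminin chain, at 10.4 (4.38 to 32.3), Cryab, a small heat-shock protein, at 2.81 (1.80 to 4.63), and Col4a4 at 2.12 (1.33 to 3.56). The lower ones were Scnn1g, a sodium channel subunit, at 0.144 (0.0909 to 0.224), and Anxa1, a membrane-binding annexin, at 0.217 (0.201 to 0.234). Pmp22 had a ratio of 0.304 (0.193 to 0.482), Flrt3 of 0.355 (0.273 to 0.463), Krt19 of 0.407 (0.374 to 0.444), Sema3e of 0.454 (0.378 to 0.546) and Ahnak of 0.485 (0.373 to 0.634). Anxa1, at 295 CPM in Sox2-positive cells, and the keratin gene Krt19, at 180 CPM, were thus higher in airway than in tip cells here.

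Over Sftpa1-positive and Sox9-positive cells, 25 genes of the list could be read. At least 2-fold higher were 0 of them, against 0.129% of all genes, and 1 was at least 2-fold lower, against 0.239%. That gene was Cryab, at 5.13 CPM against 12.3 CPM, a ratio of 0.418 (0.317 to 0.545). By interval, 2 of the 25 lay above 1 and 7 below, against 13.1% and 5.78% of all genes.

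Regulators of the AT1 fate and genes of the Hippo pathway, which acts through YAP, made up a list of 14 genes, all with enough UMIs between Sox9-positive and Sox2-positive cells. By interval, 2 lay above 1 and 4 below, near the 14.1% and 29.0% of all genes. Gata6, a distal lung factor, was at 61.6 CPM in Sox9-positive and 22.7 CPM in Sox2-positive cells, a ratio of 2.72 (2.23 to 3.34). Klf5 went the other way, at 36.8 and 78.4 CPM, a ratio of 0.470 (0.414 to 0.534). The YAP targets Cyr61, at 0.976 (0.938 to 1.016), and Ctgf, at 0.913 (0.599 to 1.43), had intervals that held 1. Between Sftpa1-positive and Sox9-positive cells, 1 of the 14 lay above 1, 1 below and 12 held 1, against 13.1% above and 5.78% below of all genes.

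Across the 3365 thinned cells, the genes most like each member were sought by Pearson's r of log-transformed UMIs among 6684 genes found in at least 5% of cells, with 0.15 as the lowest r named. Ager reached it with 3 genes, Sparc (r = 0.201), a matrix glycoprotein, Smoc2 (r = 0.167), a relative of Sparc, and Tmsb4x (r = 0.159), which binds actin. The other 6 members reached it with none. Between members, the highest r was 0.0786, for Ager and Rtkn2. These are weak relations among cells that share 1 library and its classes, and are given as a description.

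Depth was uneven in the library, and the levels of Ager, Pdpn and Akap5 were lower in the shallowest than in the deepest cells. In 511 cells under 8000 UMIs, Ager was at 51.1 CPM (43.5 to 59.5), Pdpn at 29.9 CPM (24.2 to 36.5) and Akap5 at 19.6 CPM (15.1 to 25.1). In 278 cells over 30000 UMIs they were at 64.2 CPM (59.6 to 69.0), 43.3 CPM (39.6 to 47.3) and 28.8 CPM (25.7 to 32.0), and 45.3% of those cells were doublet-marked. Between these groups, Rtkn2 (8.40 and 9.32 CPM), Hopx (3.42 and 3.96 CPM) and Cav1 (4.05 and 1.58 CPM) had overlapping intervals. In cells of 8000 to 14000 and of 14000 to 30000 UMIs, Hopx was at 2.64 (1.90 to 3.565) and 4.58 CPM (3.75 to 5.54), intervals that lay apart. So did those of Rtkn2, at 6.405 (5.22 to 7.775) and 9.08 CPM (7.89 to 10.4). Cav1 was at 1.04 CPM (0.665 to 1.54) in the deeper of these, below its interval under 8000 UMIs (2.155 to 6.92). Both Ager intervals, 51.4 to 58.7 and 56.7 to 63.1 CPM, overlapped that of the cells under 8000 UMIs. The classes also differed in depth, with medians of 9818 UMIs in Sox2-positive, 13251.5 in Sox9-positive and 15471 in Sftpa1-positive cells. The parts of depth and of class in the levels of the shallow cells were not tested.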

How the data were processed

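The submitters' processing notes name Cell Ranger, Seurat and build mm10 without versions. Per the file headers, the deposited control matrix is one of whole-number UMI counts that were not normalized, and software version 3.0.1 is recorded. The gene annotation and cell-calling rule are not given in the sources used here. The 2 libraries share 29 barcodes, 0.813% of the control's and 0.543% of the knockout's, and expression of the knockout was not analysed here. Doublets were marked by sex-linked genes only and kept in. Mesenchymal and other gates needed at least 3 markers of the type and at most 1 of 5 pan-epithelial markers. UMIs were summed per class and scaled by the class total (CPM), with exact Poisson intervals, exact conditional intervals for ratios and exact binomial (Clopper-Pearson) intervals for shares, all at 95%. Ratios were counted over genes with at least 50 UMIs in both classes together. Shares used cells thinned once to 5000 UMIs (seed 0). With 1 library there was no test. The members, the lists and the rules were chosen with earlier results of these data known. Named genes were all 7 members, other AT1 genes and regulators past 2-fold with an interval excluding 1 (at most 8 per comparison), genes with r of at least 0.15, and markers whose level bears on a member. Klf5 and Nkx2-1 beside Ager, Cyr61, Ctgf and Id2 were named after their values were seen, and the LEF/TCF motif after the promoter windows were seen. The steps were tested on simulated data. Python 3.11.15, numpy 2.4.6 and scipy 1.17.1 were used. Alternatives covered the cell filter, class limits, depth, doublets, other cell types, proliferating cells, weighting, thinning and the limits on genes and folds.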

Additional observations from a re-analysis of the deposited data

How the results depend on the processing

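No paired analysis was possible because there is 1 library. Between Sox9-positive and Sox2-positive cells, the count of members with an interval above 1 (4) lay between 3 and 4 over 9 alternatives, and the count below 1 was 0 in each. Of 119 recomputed ratios of single members, 101 stayed within the interval of the main ratio, 16 left it and 2 turned. A turn was counted only where the main interval left out 1. The 2 were Pdpn at 0.953 and Akap5 at 0.813 in Sftpa1-positive over Sox9-positive cells without Mki67 or Top2a. Some ratios whose main interval held 1 also crossed it, such as Hopx between the same classes, from 1.12 to 0.660 with that restriction. Between Sftpa1-positive and Sox9-positive cells the count of members above 1 (2) was 1 with 2 UMIs of the class gene, with overlapping classes, without doublet-marked cells and with classes called after thinning. It was 0 in cells of at most 14000 UMIs and without Mki67 or Top2a cells. The count below 1 (1) was 2 with either cell filter (500 genes and 20% mitochondrial UMIs, or 2000 genes and 5%), and 0 with 2 UMIs of the class gene and without Mki67 or Top2a cells. Of other AT1 genes, those 2-fold higher in Sox9-positive than Sox2-positive cells (3) were 6 at 1.5-fold, and 1 at 3-fold, with overlapping classes and with classes called after thinning. Those higher in Ager-positive cells (5) were 0 with 1 Ager UMI as the limit, 3 in cells of at most 14000 UMIs, 2 at 3-fold and 1 over genes with at least 200 UMIs. The share of cells with at least 2 members (10.4%) was 4.65% at 3000 UMIs, 30.5% at 10000 UMIs, 39.6% without thinning, 9.14% in cells of at most 14000 UMIs and 12.1% in distal cells. The cause of these changes was not tested, except that more UMIs per cell show more members. At this depth, Aqp5, Hopx and Cav1 could not be followed from cell to cell.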
